A study of Mus musculus with 8 samples.

Results

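Axon guidance ligands and receptors were measured by bulk RNA sequencing of stem cells from mouse white fat, the fibroblast-like cells that give rise to adipocytes, isolated with a flow cytometer. The members are all genes whose symbol names a class 3 to 7 semaphorin, a plexin, a neuropilin, a Slit, a Robo, a netrin, an Unc5 receptor, an ephrin or an Eph receptor, and there are 68 of them among the 17967 gene symbols of the count table. The 3 groups, with 2 libraries each, are cells of subcutaneous inguinal fat (SWAT), of epididymal fat (EWAT) and of perirenal fat (NWAT). All cells came from male C57BL/6J wild type mice on a chow diet. There was no treatment and no edited allele, and neither the age of the mice nor the antigens of the antibodies used to label the cells are given in the sources used here. The mesenteric depot, Robo3 and Epha8 are not analysed here.

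Guidance cues were named for steering growing axons, and the same proteins act on blood vessels, immune cells and mesenchyme. Class 3 semaphorins are secreted and bind neuropilins paired with class A or D plexins, whereas most other classes are membrane proteins that bind plexins directly. Slits are large secreted proteins that signal through Robo receptors, netrins are laminin-related and bind Dcc, neogenin and Unc5 receptors, and ephrins are cell-bound ligands that signal with Eph receptor tyrosine kinases at cell contacts. In fat, these cues are studied for their effects on sympathetic nerves, vessels, macrophages and thermogenesis.

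Each library held between 20026413 and 20638724 estimated counts. The progenitor markers Pdgfra, Ly6a, Cd34, Dcn, Lum, Pdgfrb, Pi16 and Dpp4 were present in every library and summed to between 16100 and 20993 CPM, with Dcn the largest part at 8190 to 15321 CPM (counts scaled to a common library size, with sizes adjusted by TMM, a trimmed-mean normalization). The epithelial markers Epcam, Krt14, Krt5 and Cdh1 summed to between 0 and 0.286 CPM. Nothing in the sources states whether replicates were separate animals, so p-values here reflect the spread between these libraries, which could be technical. In bulk samples, fewer expressing cells and less RNA per cell cannot be told apart.

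Of the 68 members, 56 passed the filter on low counts and were tested. The 12 that did not were Epha5, Epha7, Epha10, Ephb1, Efna3, Ntn5, Ntng1, Plxnb3, Sema4f, Sema5b, Unc5c and Unc5d, none of which had more than 13 counts in a library. Differences among the 3 depots were found for 39 of the 56 members (69.6%) when all depots were tested together with the quasi-likelihood F test of edgeR, with Benjamini-Hochberg adjustment over all genes tested and a threshold of 0.05 as in every call below, against 41.7% of all 13694 genes tested. The count was between 29 and 42 over 13 alternative settings. The median absolute log2 fold change between SWAT and EWAT was 0.60 for the members and 0.32 for all genes, between SWAT and NWAT 0.63 and 0.22, and between EWAT and NWAT 0.41 and 0.27.

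SWAT and EWAT differed in 29 members, against 36.7% of all genes, SWAT and NWAT in 30, against 18.9%, and EWAT and NWAT in 23, against 27.3%. SWAT exceeded EWAT in 18 members and was below it in 11, which is 32.1% and 19.6% of the members, against 18.0% and 18.7% of all genes. SWAT exceeded NWAT in 14 members (25%, against 9.07% of all genes) and was below it in 16 (28.6%, against 9.83%). EWAT exceeded NWAT in 8 members (14.3%, against 13.3%) and was below it in 15 (26.8%, against 14.0%). The split was different in limma on log2 (FPKM + 1) values, where FPKM also divides by gene length and no TMM factors were applied. There 8 members were higher and 11 lower in SWAT than in EWAT, and 6 higher and 17 lower in SWAT than in NWAT. The shares of all genes called in that setting are not given here, so these counts cannot be set against them. Test, filter and scaling changed together in that setting, and their separate parts were not tested. For each of the 11568 genes tested in both fits, the log2 fold change on counts was subtracted from that on log2 (FPKM + 1) values. The median of these differences was -0.22 for SWAT over EWAT, -0.18 for SWAT over NWAT and 0.04 for EWAT over NWAT. For SWAT over NWAT, 18 and 19 members were called without NWAT replicate 1 and without NWAT replicate 2, with 5 and 6 of them higher, and 9 and 8 were higher without SWAT replicate 1 and without SWAT replicate 2. For EWAT over NWAT, 14 members were called without NWAT replicate 2, with 4 of them higher, and 5 were higher without EWAT replicate 2.

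**Figure D1:**
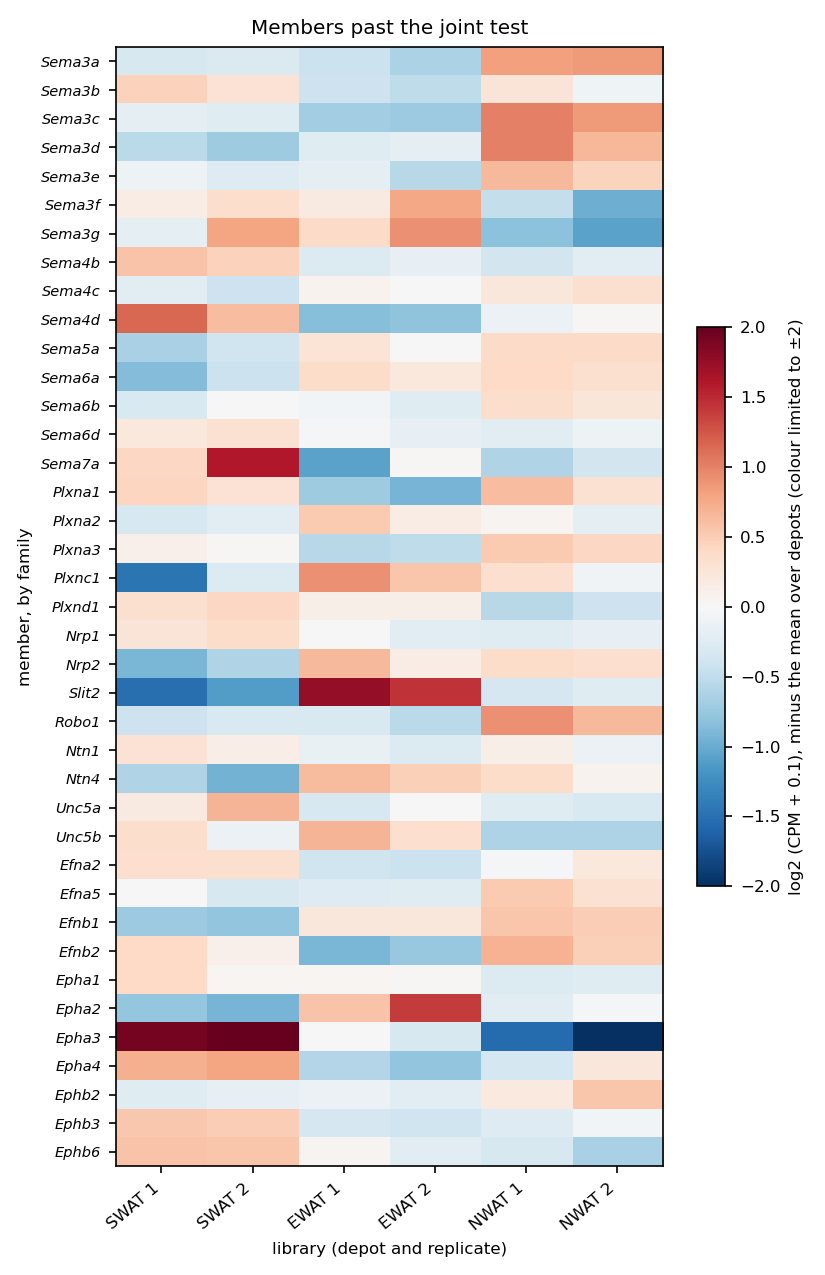
Colour gives log2 (CPM + 0.1) of each library minus the gene's mean over the 3 depots, for the 39 members past the joint test in rows and the 6 libraries in columns. Sema3a, Sema3c, Sema3d, Sema3e and Robo1 are red in both NWAT libraries, Slit2 in both EWAT libraries and Epha3 in both SWAT libraries.

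Levels of different genes were compared per length, in FPKM. Slit3 was the most abundant member over the 6 libraries, at 190.9 ± 0.672 FPKM in SWAT, 178 ± 32.2 FPKM in EWAT and 163 ± 10.4 FPKM in NWAT (SD, n = 2 each). It took 31.8% and 32.1% of the summed FPKM of all members in SWAT, 31.3% and 26.7% in EWAT and 21.2% and 21.6% in NWAT. Sema3c came next, with 12.5% and 12.4% in SWAT, 9.58% and 10.6% in EWAT and 24.5% and 24.3% in NWAT, and was the most abundant member in both NWAT libraries. Summed FPKM of the 20 semaphorins was 166 and 162 in SWAT, 153.5 and 153.2 in EWAT and 319.6 and 286 in NWAT. The 3 Robo receptors summed to 4.43 and 4.86 FPKM in SWAT, 5.42 and 4.86 FPKM in EWAT and 11.97 and 10.06 FPKM in NWAT, far below the 158.5 FPKM or more of their Slit ligands in any library.

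**Figure D2:**
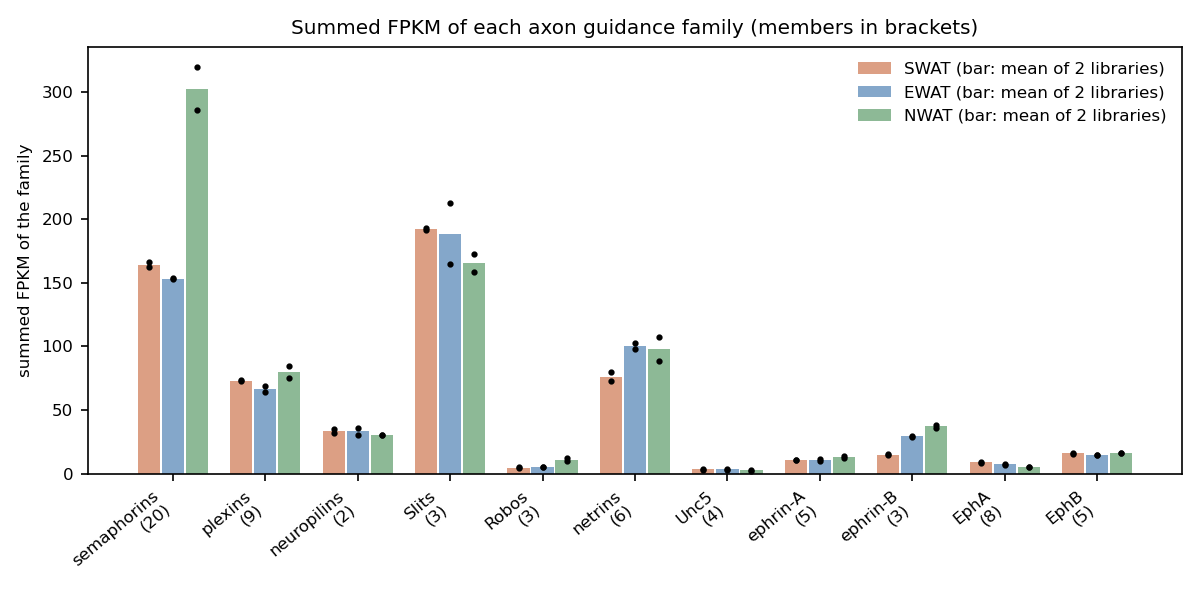
Bars give the mean over 2 libraries of the summed FPKM of each family, points the libraries, with the number of members in brackets. The semaphorin sum stands at 319.6 and 286 FPKM in NWAT, while both other depots lie at 166 or less.

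The class 3 semaphorins, secreted ligands of neuropilin and plexin complexes, held the clearest NWAT pattern: Sema3a, Sema3c, Sema3d and Sema3e were all higher in NWAT than in SWAT and than in EWAT. Sema3c, which guides neural crest and vascular cells in the developing heart, stood at 418 and 401 CPM in SWAT, 292 and 284 CPM in EWAT and 946 and 850.3 CPM in NWAT. No library of one depot overlapped those of another, and both NWAT libraries lay highest. The log2 fold change was 0.51 ± 0.11 for SWAT over EWAT (SE; edgeR adjusted p = 0.00478), -1.13 ± 0.11 for SWAT over NWAT (adjusted p = 2.86e-05) and -1.64 ± 0.12 for EWAT over NWAT (adjusted p = 1.40e-06). The progenitor markers Pi16 and Dpp4 had the same depot order. Pi16 had 2056 and 1804 CPM in SWAT, 587 and 596 CPM in EWAT and 3754 and 2973 CPM in NWAT, and Dpp4 had 517 and 464 CPM in SWAT, 238 and 227 CPM in EWAT and 728 and 654 CPM in NWAT. Of the other progenitor markers, the means of Pdgfra and Cd34 had that order too, but those of Dcn, Lum, Pdgfrb and Ly6a did not. Dcn was highest in EWAT, at a mean of 15142 CPM against 8392 in SWAT and 9200 in NWAT. Lum was lowest in NWAT (848 CPM, against 1331 in SWAT and 1470 in EWAT), and Pdgfrb and Ly6a had their highest means in SWAT. The part of these markers in the Sema3c differences was not tested.

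Sema3d had 37.6 and 33.6 CPM in SWAT, 46.5 and 48.1 CPM in EWAT and 109.8 and 87.2 CPM in NWAT. Both NWAT libraries were again the highest, with log2 fold changes of -1.47 ± 0.12 for SWAT over NWAT (edgeR adjusted p = 8.41e-06) and -1.06 ± 0.12 for EWAT over NWAT (adjusted p = 6.40e-05). Its -0.41 for SWAT over EWAT was called too, but lost without SWAT replicate 1 (-0.49), SWAT replicate 2 (-0.33) or EWAT replicate 2 (-0.37). Sema3a, a repellent of sensory and sympathetic axons, had 10.3 and 10.5 CPM in SWAT, 9.48 and 8.22 CPM in EWAT and 22.7 and 23.3 CPM in NWAT. The SWAT and EWAT libraries lay close together and the NWAT pair well above them, with -1.14 ± 0.12 for SWAT over NWAT and -1.38 ± 0.12 for EWAT over NWAT (edgeR adjusted p = 5.30e-05 and 9.88e-06). Sema3e, which binds plexin D1 without a neuropilin, had 32.6 and 29.1 CPM in SWAT, 30.9 and 23.8 CPM in EWAT and 54.8 and 47.6 CPM in NWAT. SWAT and EWAT overlapped and NWAT stood apart, at -0.73 ± 0.14 for SWAT over NWAT and -0.91 ± 0.14 for EWAT over NWAT (edgeR adjusted p = 0.00271 and 4.78e-04).

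In total 10 of the 56 tested members (17.9%) were higher in NWAT than in each of SWAT and EWAT, against 3.42% of all genes. Besides the 4 semaphorins they were Robo1, Plxna3, Efnb1, Efna5, Ephb2 and Sema6b. In DESeq2 the number of such members was 7. These 4 semaphorins and Robo1 passed both tests under all 13 alternatives. The number was 6 without SWAT replicate 1, without SWAT replicate 2, without NWAT replicate 1 or without NWAT replicate 2. In the other direction 4 members (7.14%, against 2.35% of all genes) were lower in NWAT than in each of SWAT and EWAT, namely Epha3, Plxnd1, Sema3g and Unc5b, a number that was 2 in DESeq2, on log2 (FPKM + 1) values, without NWAT replicate 1 or without NWAT replicate 2.

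The 4 genes share a place that the choice of members did not use, a pattern picked out after their values were seen. On GRCm38.p6 they lie in 1 stretch of chromosome 5, with Sema3d from 12383161 to 12588953, Sema3a from 13124822 to 13603485, Sema3e from 14025276 to 14256689 and Sema3c from 17574816 to 17730268, all protein-coding. The stretch is 5.35 Mb long and holds 3 other tested genes, Pclo, Cacna2d1 and Hgf. Cacna2d1, a calcium channel subunit, was higher in SWAT than in NWAT (log2 fold change 0.75, edgeR adjusted p = 6.14e-04) and lower in EWAT than in NWAT (-0.47, 0.0101). Hgf, the ligand of the Met receptor, was higher in EWAT than in NWAT (1.04, edgeR adjusted p = 5.38e-04), and Pclo was past the threshold in no comparison. The other class 3 genes, Sema3b, Sema3f and Sema3g, lie on chromosomes 9 and 14 and were not called higher in NWAT than in both other depots. Sema3b, on chromosome 9 (107597674 to 107609241), had 125 and 111 CPM in SWAT, 67.9 and 63.5 CPM in EWAT and 108 and 85.8 CPM in NWAT, with EWAT below both other depots. Its log2 fold change was 0.85 ± 0.13 for SWAT over EWAT (edgeR adjusted p = 2.94e-04) and -0.56 ± 0.12 for EWAT over NWAT (0.00622), the second call being lost without NWAT replicate 1 (-0.38). Sema3f and Sema3g stayed below 3 CPM in every library.

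**Figure D3:**
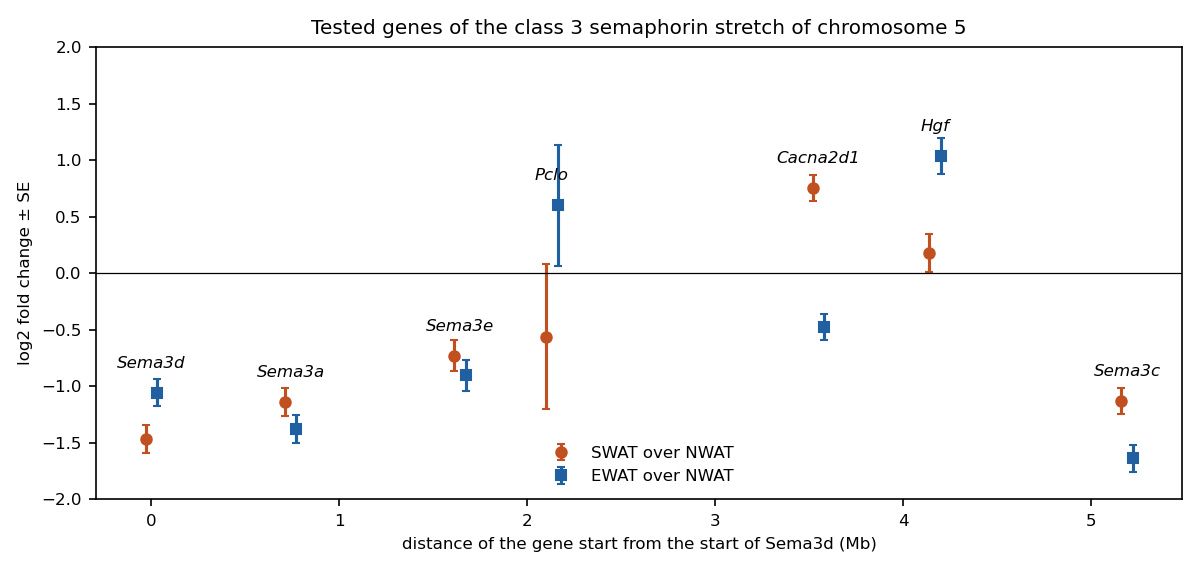
The x axis gives the distance of each gene's start from that of Sema3d in Mb and the y axis its log2 fold change ± SE, for SWAT over NWAT (circles) and EWAT over NWAT (squares). The 4 semaphorins lie below 0 in both comparisons, from -0.73 to -1.64, while Cacna2d1 and Hgf each have a point above 0.

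Promoter sequence is shown for those of the 4 semaphorins whose upstream stretch is free of annotated exons, and for Slit2, whose stretch holds 17 bases of annotated exon and which differed strongly between SWAT and EWAT, so that start regions of members with different depot patterns can be read side by side. Each is the 250 bases before the start in the RefSeq promoter table (build GRCm38.p6, plus strand, 5′ to 3′). Capitals mark matches on either strand to the TATA box (TATAAA), the GC box (GGGCGG) or one form of the E-box (CAGCTG).
Sema3d, chr5:12382916-12383165: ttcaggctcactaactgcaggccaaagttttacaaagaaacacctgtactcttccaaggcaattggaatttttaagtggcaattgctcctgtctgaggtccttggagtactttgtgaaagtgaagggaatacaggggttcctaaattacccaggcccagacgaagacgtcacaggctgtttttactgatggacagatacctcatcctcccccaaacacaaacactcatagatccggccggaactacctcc
Sema3a, chr5:13396534-13396783: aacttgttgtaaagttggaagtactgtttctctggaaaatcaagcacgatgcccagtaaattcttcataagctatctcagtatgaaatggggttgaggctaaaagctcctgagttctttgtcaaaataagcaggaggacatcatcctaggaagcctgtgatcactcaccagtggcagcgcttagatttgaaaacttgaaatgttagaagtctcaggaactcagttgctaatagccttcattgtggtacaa
Sema3e, chr5:14025026-14025275: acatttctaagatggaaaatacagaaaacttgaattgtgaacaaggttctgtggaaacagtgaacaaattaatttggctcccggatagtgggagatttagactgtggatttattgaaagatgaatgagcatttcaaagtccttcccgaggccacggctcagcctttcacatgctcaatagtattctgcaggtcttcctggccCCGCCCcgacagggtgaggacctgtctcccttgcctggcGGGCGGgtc
Slit2, chr5:47982905-47983154: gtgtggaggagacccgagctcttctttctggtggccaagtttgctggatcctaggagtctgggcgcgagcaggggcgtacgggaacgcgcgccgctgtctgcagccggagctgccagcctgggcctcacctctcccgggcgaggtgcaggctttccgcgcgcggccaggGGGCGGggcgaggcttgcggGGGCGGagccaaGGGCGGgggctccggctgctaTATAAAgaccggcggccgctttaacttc

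Among these sequences Sema3d and Sema3a held none of the 3 motifs, Sema3e held 2 GC boxes, and Slit2 held 3 GC boxes and 1 TATA box. The stretch before Sema3c, not printed because it is annotated as exon, held 3 GC boxes and 39 CpG dinucleotides, against 4 in Sema3d, 2 in Sema3a, 7 in Sema3e and 25 in Slit2. Over all 32851 promoters of the table, 12.4% held a TATA box, 32.7% a GC box and 13% this E-box, and no motif was found in all 4 semaphorin stretches. The Sema3a and Slit2 stretches lie inside the annotated span of their genes, which begin further upstream.

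Several transmembrane semaphorins were lower in SWAT than in both other depots. Sema5a, with thrombospondin repeats next to its semaphorin domain, had 30.2 and 35.5 CPM in SWAT, 57.2 and 47.2 CPM in EWAT and 61.7 and 61.2 CPM in NWAT. Sema6a, a ligand of plexins A2 and A4, had 11.1 and 15.1 CPM in SWAT, 26.2 and 23.4 CPM in EWAT and 27.0 and 25.3 CPM in NWAT. For both genes the SWAT libraries lay below the other 4. The log2 fold change of Sema5a was -0.67 ± 0.12 for SWAT over EWAT and -0.90 ± 0.12 for SWAT over NWAT (edgeR adjusted p = 0.00136 and 2.83e-04), and that of Sema6a -0.91 ± 0.14 and -0.99 ± 0.15 (adjusted p = 5.04e-04 and 5.32e-04).

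Class 4 semaphorins did not go 1 way. Sema4c was lower in SWAT than in both other depots, at 60.0 and 52.0 CPM in SWAT, 72.2 and 69.2 CPM in EWAT and 81.1 and 86.1 CPM in NWAT, whereas Sema4b and Sema4d were higher. Without SWAT replicate 2 both Sema4c calls were lost, at -0.23 for SWAT over EWAT and -0.48 for SWAT over NWAT, from -0.34 and -0.58 with all libraries. Sema4b had 27.7 and 25.7 CPM in SWAT, 15.4 and 16.6 CPM in EWAT and 14.5 and 16.01 CPM in NWAT, with log2 fold changes of 0.74 ± 0.12 for SWAT over EWAT and 0.81 ± 0.12 for SWAT over NWAT (edgeR adjusted p = 4.52e-04 and 4.50e-04). Sema4d, the ligand of plexin B1 and a well-known lymphocyte protein, had 5.32 and 3.64 CPM in SWAT, 1.26 and 1.30 CPM in EWAT and 2.15 and 2.38 CPM in NWAT. Both SWAT libraries lay highest for either gene. The log2 fold change of Sema4d was 1.80 ± 0.28 for SWAT over EWAT (edgeR adjusted p = 4.51e-04), and its difference of 0.98 from NWAT lost its call without SWAT replicate 1 (0.69), without NWAT replicate 1 (0.91) or without NWAT replicate 2 (1.06). DESeq2 did not call that difference from NWAT either (0.995), and Sema4d fell under the minimum of the FPKM test. The leukocyte marker Ptprc and 8 others of its list summed to 12.9 and 23.0 CPM in SWAT, 33.8 and 31.2 CPM in EWAT and 19.2 and 18.7 CPM in NWAT, and their part in the Sema4d difference was not tested. Of the 20 semaphorins, 18 were tested and 15 passed the joint test, against 41.7% of all genes. The other tested ones, Sema4a, Sema4g and Sema6c, did not.

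Among the receptors of semaphorins, Plxna1, a partner of neuropilin 1, was set low in EWAT. It had 288 and 260.2 CPM in SWAT, 130.0 and 112 CPM in EWAT and 328 and 264 CPM in NWAT. SWAT and NWAT overlapped, and both EWAT libraries lay below every other one, with log2 fold changes of 1.18 ± 0.13 for SWAT over EWAT and -1.29 ± 0.13 for EWAT over NWAT (edgeR adjusted p = 3.81e-05 and 2.97e-05). An antisense transcript annotated across 970 exon bases of Plxna1 could share its reads if strand was ignored in counting. That transcript was not among the genes tested. Plxna3, on the X chromosome (74328290 to 74344689), had 21.9 and 20.8 CPM in SWAT, 13.9 and 14.2 CPM in EWAT and 29.3 and 27.0 CPM in NWAT, and its log2 fold change for EWAT over NWAT was -1.002 ± 0.11 (edgeR adjusted p = 4.66e-05). Its -0.40 for SWAT over NWAT was lost without SWAT replicate 1 (-0.44), SWAT replicate 2 (-0.36), NWAT replicate 1 (-0.34) or NWAT replicate 2 (-0.45), and its 0.60 for SWAT over EWAT on log2 (FPKM + 1) values (0.20). DESeq2 did not call the SWAT over NWAT difference either (-0.39).

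Plxnd1, the receptor of Sema3e, was lowest in NWAT, where that ligand was highest. It had 128 and 136 CPM in SWAT, 110.5 and 111 CPM in EWAT and 69.7 and 76.5 CPM in NWAT, with 0.85 ± 0.10 for SWAT over NWAT and 0.60 ± 0.10 for EWAT over NWAT (edgeR adjusted p = 1.16e-04 and 0.00105). Plxnb2, a receptor of class 4 semaphorins and the most abundant plexin per length over the 6 libraries at 24.4 ± 0.955 FPKM in SWAT, 30.1 ± 1.77 FPKM in EWAT and 29.1 ± 1.64 FPKM in NWAT (SD, n = 2 per depot), had 172 and 177 CPM in SWAT, 193 and 172 CPM in EWAT and 189 and 176 CPM in NWAT. The depots overlapped, and no difference was past the threshold (log2 fold changes -0.06 ± 0.11, -0.07 ± 0.11 and -0.00 ± 0.11 for SWAT over EWAT, SWAT over NWAT and EWAT over NWAT). Plxnc1, the receptor of Sema7a, was scarce, with 0.823 and 2.004 CPM in SWAT, 4.67 and 3.64 CPM in EWAT and 3.10 and 2.33 CPM in NWAT, and was lower in SWAT than in EWAT (-1.54 ± 0.36, edgeR adjusted p = 0.00624). It fell under the minimum of the FPKM test. In all, 5 of 8 tested plexins passed the joint test, against 41.7% of all genes.

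The 2 neuropilins, the ligand-binding co-receptors of class 3 semaphorins, went opposite ways in SWAT. Nrp2 had 14.2 and 17.6 CPM in SWAT, 42.1 and 29.7 CPM in EWAT and 34.5 and 33.6 CPM in NWAT. SWAT lay below all other libraries while EWAT and NWAT overlapped, with -1.17 ± 0.17 for SWAT over EWAT and -1.10 ± 0.17 for SWAT over NWAT (edgeR adjusted p = 3.48e-04 and 0.00104). Nrp1 had 189.6 and 205 CPM in SWAT, 159 and 138 CPM in EWAT and 135 and 142 CPM in NWAT, and was higher in SWAT than in EWAT by 0.41 ± 0.11 and than in NWAT by 0.51 ± 0.11 (edgeR adjusted p = 0.0137 and 0.00714). Both Nrp1 calls were lost without SWAT replicate 2 (0.35 and 0.46), that against NWAT also without NWAT replicate 1 (0.47), and that against EWAT on log2 (FPKM + 1) values (0.20). Per length Nrp1 exceeded Nrp2 in every library, at 24.8 FPKM or more.

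**Figure D4:**
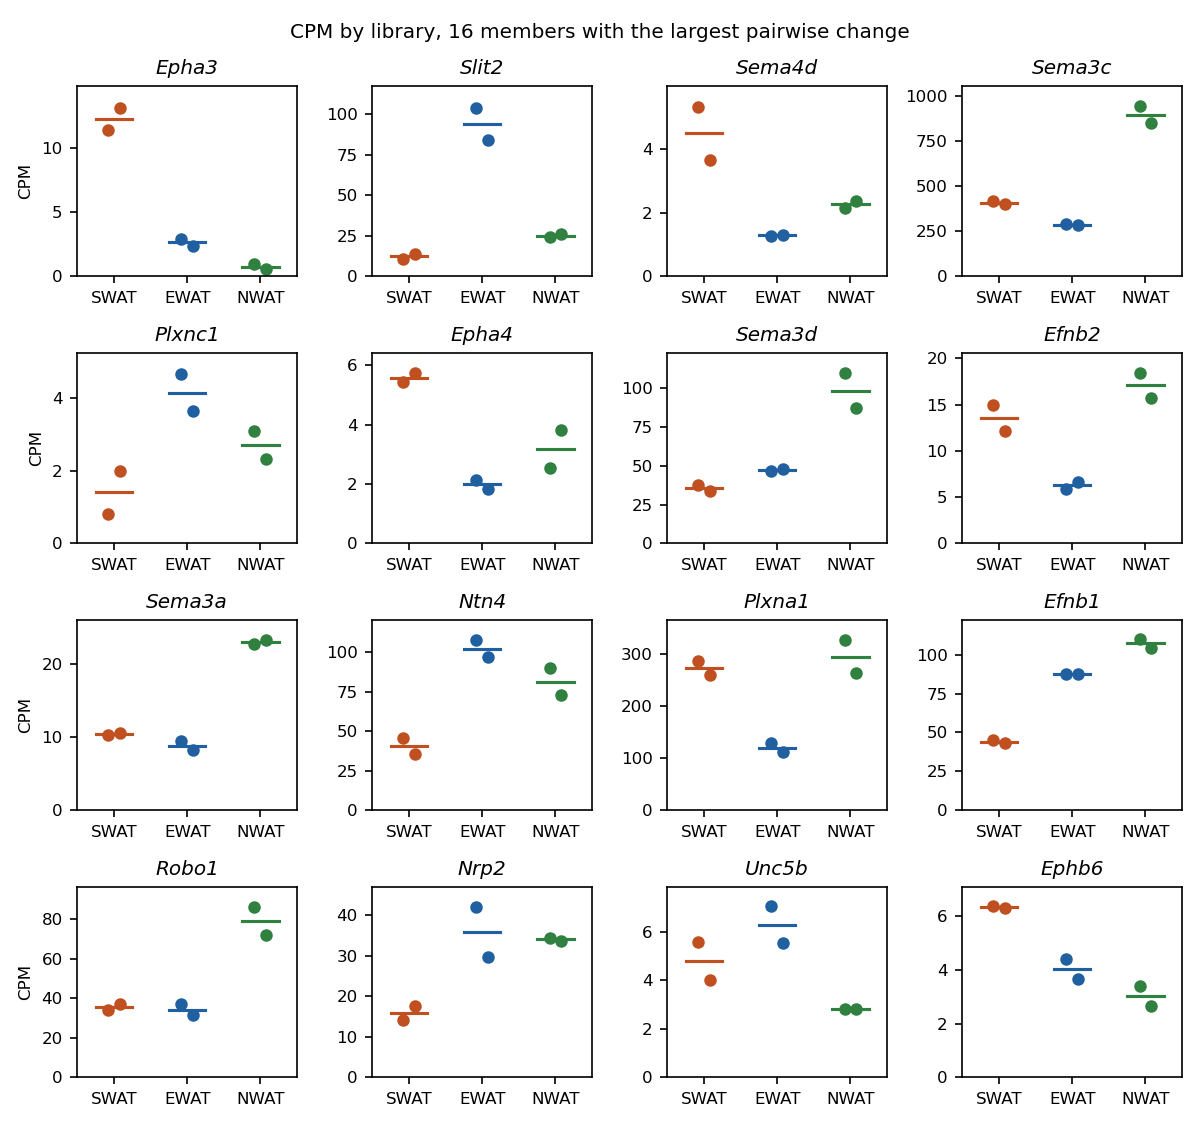
CPM (y axes, each from 0) by depot for the 16 members with the largest pairwise log2 fold change among those past the joint test whose mean log2 CPM was 1 or more, with 1 point per library and a line at the mean of 2. Slit2 is high in EWAT, Epha3 in SWAT, and Sema3c, Sema3d, Sema3a and Robo1 in NWAT.

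Of the 6 tested Slit and Robo genes, only Slit2 and Robo1 passed the joint test, which 41.7% of all genes passed. Slit2, of which a cleaved fragment is known from mouse work to act on thermogenic fat, lies on chromosome 5 (47981291 to 48307735). It had 10.7 and 14.1 CPM in SWAT, 104 and 84.2 CPM in EWAT and 24.3 and 26.01 CPM in NWAT. The 3 depots did not overlap, and the log2 fold change was -2.92 ± 0.15 for SWAT over EWAT (edgeR adjusted p = 7.86e-08), -1.02 ± 0.15 for SWAT over NWAT (6.94e-04) and 1.90 ± 0.14 for EWAT over NWAT (2.55e-06). Slit2 and Epha2 were the 2 members higher in EWAT than in each other depot (3.57%, against 9.02% of all genes). The number was 4 with the replicate block, 3 with no count filter, and 1 in DESeq2, with the stricter filter, without NWAT replicate 1 or without NWAT replicate 2. The Epha2 difference between EWAT and NWAT of 1.23 was lost without EWAT replicate 2 (0.73), without NWAT replicate 1 (1.14) or without NWAT replicate 2 (1.34). DESeq2 did not call that difference either (1.24), and Epha2 fell under the minimum of the FPKM test. Its levels were 0.713 and 0.633 CPM in SWAT, 1.96 and 3.59 CPM in EWAT and 1.10 and 1.26 CPM in NWAT.

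Slit3, on chromosome 11 (35121456 to 35708507), had 1072 and 1046 CPM in SWAT, 959.6 and 723 CPM in EWAT and 824 and 760.1 CPM in NWAT. SWAT lay above the other libraries and EWAT and NWAT overlapped, yet no difference was past the threshold (0.33 ± 0.14 for SWAT over EWAT and 0.42 ± 0.14 for SWAT over NWAT, edgeR adjusted p = 0.0855 and 0.0601). The difference from NWAT was called without EWAT replicate 1 (0.42, edgeR adjusted p = 0.0111) and without EWAT replicate 2 (0.43, 0.00974). It was also called in DESeq2 (0.43, adjusted p = 0.0113), with no count filter (0.43, edgeR adjusted p = 0.0365) and with a replicate block (0.42, 0.0279), and its adjusted p ranged from 0.00974 to 0.287 over the 13 alternatives. Robo1, the main Slit receptor here, had 34.2 and 37.1 CPM in SWAT, 37.0 and 31.6 CPM in EWAT and 86.4 and 72.0 CPM in NWAT. SWAT and EWAT overlapped and NWAT stood above both, with -1.15 ± 0.12 for SWAT over NWAT and -1.21 ± 0.12 for EWAT over NWAT (edgeR adjusted p = 4.33e-05 and 2.26e-05). Robo2 and the endothelial Robo4 stayed at or below 1.65 CPM and passed no joint test, like Slit1.

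Of the netrins, Ntn4, a basement membrane protein related to laminin beta chains, was lowest in SWAT. It had 45.7 and 35.8 CPM in SWAT, 108 and 96.7 CPM in EWAT and 89.7 and 72.7 CPM in NWAT. Both SWAT libraries lay below the rest, with -1.33 ± 0.14 for SWAT over EWAT and -0.99 ± 0.14 for SWAT over NWAT (edgeR adjusted p = 2.88e-05 and 5.01e-04). Ntn1, the founding netrin, which retains macrophages in obese mouse fat, was the most abundant of the family per length, at 50.005 ± 2.95 FPKM in SWAT, 43.8 ± 1.58 FPKM in EWAT and 49.4 ± 5.98 FPKM in NWAT (SD, n = 2 per depot). It had 337 and 301 CPM in SWAT, 247 and 229 CPM in EWAT and 298 and 254 CPM in NWAT, and SWAT over EWAT was 0.42 ± 0.12 (edgeR adjusted p = 0.0174), a call lost without SWAT replicate 1 (0.34) and on log2 (FPKM + 1) values (0.18).

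The Unc5 receptors, which mediate repulsion by netrins, were scarce. Unc5b had 5.59 and 4.01 CPM in SWAT, 7.05 and 5.53 CPM in EWAT and 2.82 and 2.81 CPM in NWAT. Both NWAT libraries were lowest, with 1.16 ± 0.23 for EWAT over NWAT (edgeR adjusted p = 0.00287). The 0.77 of SWAT over NWAT lost its call without SWAT replicate 1 (0.51), without NWAT replicate 1 (0.77) and without NWAT replicate 2 (0.77). With all libraries, that call was also lost in DESeq2 (0.78) and on log2 (FPKM + 1) values (0.22). Unc5a had 9.54 and 13.5 CPM in SWAT, 6.73 and 8.40 CPM in EWAT and 7.06 and 6.79 CPM in NWAT. Its differences of 0.61 (SWAT over EWAT, edgeR adjusted p = 0.0243) and 0.73 (SWAT over NWAT, 0.0176) were lost without SWAT replicate 2 (0.34 and 0.46), the first also without EWAT replicate 1 (0.46) and the second without NWAT replicate 1 (0.76) or NWAT replicate 2 (0.71). Neither was called on log2 (FPKM + 1) values (0.25 and 0.36), and DESeq2 did not call the first (0.62).

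Of the 3 ephrin-B ligands, transmembrane partners of EphB receptors, Efnb1 and Efnb2 passed the joint test, which 41.7% of all genes passed. Their depot orders differed, and Efnb3, at 1.46 CPM or less, did not pass it. Efnb1, an X-linked gene (99136061 to 99149022), had 45.0 and 43.0 CPM in SWAT, 87.3 and 87.3 CPM in EWAT and 109.8 and 105 CPM in NWAT. SWAT lay far below both other depots, with -0.99 ± 0.10 for SWAT over EWAT and -1.28 ± 0.10 for SWAT over NWAT (edgeR adjusted p = 1.22e-05 and 3.51e-06). Its -0.29 for EWAT over NWAT was lost without any 1 of the libraries other than EWAT replicate 1, at -0.26 to -0.33. With all libraries, that call was also lost in DESeq2 (-0.30) and on log2 (FPKM + 1) values (-0.24). Efnb2, the arterial ligand of EphB4, had 14.9 and 12.1 CPM in SWAT, 5.93 and 6.65 CPM in EWAT and 18.4 and 15.7 CPM in NWAT. EWAT lay below both other depots, with 1.10 ± 0.16 for SWAT over EWAT and -1.44 ± 0.15 for EWAT over NWAT (edgeR adjusted p = 2.26e-04 and 3.62e-05).

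Of the ephrin-A ligands, which are held in the membrane by a lipid anchor, Efna5 was the most abundant per length over the 6 libraries, at 4.59 ± 0.629 FPKM in SWAT, 5.08 ± 0.127 FPKM in EWAT and 7.82 ± 0.884 FPKM in NWAT (SD, n = 2 per depot). It had 29.6 and 23.7 CPM in SWAT, 25.03 and 25.2 CPM in EWAT and 42.8 and 36.9 CPM in NWAT. SWAT and EWAT overlapped and NWAT was highest, with -0.67 ± 0.13 for EWAT over NWAT (edgeR adjusted p = 0.00230), and the -0.58 of SWAT over NWAT lost its call without SWAT replicate 2 (-0.43) or NWAT replicate 1 (-0.47). Efna2 had 7.84 and 7.75 CPM in SWAT, 4.72 and 4.58 CPM in EWAT and 6.11 and 7.18 CPM in NWAT, and SWAT over EWAT was 0.75 ± 0.17 (edgeR adjusted p = 0.00534). Its -0.51 for EWAT over NWAT was lost when any library was left out, at -0.39 to -0.63. With all libraries, that call was also lost in DESeq2 and with the replicate block, at -0.51 in each.

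Of 5 tested EphA receptors, 2 were higher and 1 lower in SWAT than in EWAT, and 3 were higher and 0 lower in SWAT than in NWAT. Of 4 tested EphB receptors, 2 were higher and 0 lower in SWAT than in EWAT, and 2 higher and 1 lower in SWAT than in NWAT. Of all genes, 18.0% were higher and 18.7% lower in SWAT than in EWAT, and 9.07% higher and 9.83% lower in SWAT than in NWAT. Epha3, a receptor of ephrin-A5 on chromosome 16 (63543532 to 63864175), had the largest pairwise change among members past the joint test whose mean log2 CPM was 1 or more. It had 11.4 and 13.1 CPM in SWAT, 2.94 and 2.34 CPM in EWAT and 0.954 and 0.582 CPM in NWAT. The depots did not overlap, and the log2 fold change was 2.21 ± 0.22 for SWAT over EWAT (edgeR adjusted p = 1.07e-05), 3.98 ± 0.26 for SWAT over NWAT (1.21e-06) and 1.77 ± 0.29 for EWAT over NWAT (8.82e-04). Epha4, a receptor with broad affinity for both ephrin classes, had 5.43 and 5.75 CPM in SWAT, 2.15 and 1.84 CPM in EWAT and 2.53 and 3.83 CPM in NWAT, with 1.48 ± 0.25 for SWAT over EWAT (edgeR adjusted p = 8.02e-04). Its 0.81 for SWAT over NWAT lost its call on leaving out SWAT replicate 1 (0.85) or 2 (0.77), or NWAT replicate 1 (0.54). DESeq2 did not call that difference either (0.82), and Epha4 fell under the minimum of the FPKM test. The most abundant EphA gene per length over the 6 libraries, Epha1, at 4.97 ± 0.926 FPKM in SWAT, 5.04 ± 0.00707 FPKM in EWAT and 4.005 ± 0.0354 FPKM in NWAT (SD, n = 2 per depot), had 19.9 and 15.4 CPM in SWAT, 15.5 and 15.3 CPM in EWAT and 12.4 and 12.7 CPM in NWAT. Its 0.49 for SWAT over NWAT (edgeR adjusted p = 0.0285) was lost without SWAT replicate 1 (0.30), NWAT replicate 1 (0.47) or NWAT replicate 2 (0.51). With all libraries, that call was also lost in DESeq2 (0.50) and on log2 (FPKM + 1) values (0.25). Epha1 shares 236 exon bases with the opposite-strand gene Zyx, so their reads may be mixed. Sema4c shares 334 exon bases with an opposite-strand transcript, Unc5a 34 with Hk3 and Ephb4 33 with Zan. Reads may be mixed there too, but unlike Zyx these overlapping genes were not among the genes tested.

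Ephb3 had 22.4 and 21.8 CPM in SWAT, 12.2 and 11.7 CPM in EWAT and 12.9 and 14.8 CPM in NWAT, and SWAT over EWAT was 0.89 ± 0.12 and SWAT over NWAT 0.68 ± 0.12 (edgeR adjusted p = 1.60e-04 and 0.00194). Ephb6, whose kinase domain is inactive, had 6.36 and 6.28 CPM in SWAT, 4.39 and 3.64 CPM in EWAT and 3.39 and 2.67 CPM in NWAT. SWAT was highest for both genes, and SWAT over NWAT was 1.06 ± 0.21 for Ephb6 (edgeR adjusted p = 0.00403), a call lost without NWAT replicate 2 (0.90). Its 0.65 for SWAT over EWAT was lost without SWAT replicate 1 (0.64), SWAT replicate 2 (0.67) or EWAT replicate 2 (0.54). With all libraries, that call was also lost in DESeq2 (0.67) and on log2 (FPKM + 1) values (0.26). Ephb4, the venous receptor of ephrin-B2 and the most abundant Eph gene per length, had 32.5 and 35.3 CPM in SWAT, 28.9 and 31.7 CPM in EWAT and 33.4 and 30.2 CPM in NWAT. Its depots overlapped and no difference was past the threshold, with 0.16 ± 0.11 for SWAT over EWAT, which turned to -0.06 on log2 (FPKM + 1) values.

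Members higher in SWAT than in each of EWAT and NWAT numbered 10 (17.9%, against 6.21% of all genes), and those lower numbered 8 (14.3%, against 5.88%). The 10 were Epha3, Epha4, Ephb3, Ephb6, Nrp1, Sema4b, Sema4d, Sema6d, Sema7a and Unc5a, and their number was 7 in DESeq2. The number was 6 without SWAT replicate 1, 4 without SWAT replicate 2, 4 without NWAT replicate 1, 5 without NWAT replicate 2 and 3 on log2 (FPKM + 1) values. The 8 were Efnb1, Ntn4, Nrp2, Sema3d, Sema4c, Sema5a, Sema6a and Slit2, and their number was 7 or 8 under every alternative run. Lower in EWAT than in each of SWAT and NWAT were 6 members (10.7%, against 8.57%), namely Efna2, Efnb2, Plxna1, Plxna3, Sema3b and Sema3c. Their number was 5 in DESeq2, on log2 (FPKM + 1) values and with the replicate block.

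Genes of the wider pathway were taken from a list of 44 partners, of which 42 were tested and 29 passed the joint test, which 41.7% of all genes passed. All 8 tested Slit-Robo partners passed it. Of these, 5 were higher and 1 lower in SWAT than in EWAT, against 18.0% and 18.7% of all genes, and 1 was higher and 6 lower in EWAT than in NWAT, against 13.3% and 14.0%. Srgap1, a GTPase-activating protein bound by Robo, had 122 and 127 CPM in SWAT, 55.9 and 47.8 CPM in EWAT and 116 and 108 CPM in NWAT, and SWAT over EWAT was 1.27 ± 0.11 (edgeR adjusted p = 4.23e-06). Enah, an actin regulator downstream of Robo, had 52.8 and 53.2 CPM in SWAT, 16.6 and 16.4 CPM in EWAT and 39.8 and 38.0 CPM in NWAT, with 1.69 ± 0.10 for SWAT over EWAT (edgeR adjusted p = 1.72e-07). Both were thus lowest in EWAT, the depot with the highest Slit2. Nck1 was the 1 partner called in the other direction in both comparisons. Its mean was 51.2 CPM in EWAT, against 34.5 in SWAT and 37.4 in NWAT. The log2 fold change of Nck1 was -0.57 for SWAT over EWAT and 0.45 for EWAT over NWAT, the second call being lost without NWAT replicate 1 (0.33). Gpc1, a heparan sulfate proteoglycan that binds Slits, had 11.6 and 17.8 CPM in SWAT, 3.50 and 2.97 CPM in EWAT and 3.67 and 3.35 CPM in NWAT, with 2.18 ± 0.22 for SWAT over EWAT and 2.06 ± 0.22 for SWAT over NWAT (edgeR adjusted p = 1.50e-05 and 4.59e-05).

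Among 11 netrin and RGM partners, 8 passed the joint test, against 41.7% of all genes. Neo1, the receptor neogenin, had 202 and 196 CPM in SWAT, 87.6 and 69.9 CPM in EWAT and 151 and 134 CPM in NWAT, and SWAT over EWAT was 1.34 ± 0.13 (edgeR adjusted p = 7.86e-06). Flrt3, an adhesion protein that binds Unc5 receptors, had 40.8 and 30.3 CPM in SWAT, 54.0 and 43.4 CPM in EWAT and 131 and 111 CPM in NWAT, with -1.77 ± 0.16 for SWAT over NWAT and -1.31 ± 0.16 for EWAT over NWAT (edgeR adjusted p = 2.65e-05 and 1.42e-04). Neo1 was lowest in EWAT and Flrt3 highest in NWAT. Of 13 tested plexin and neuropilin partners 9 passed the joint test. Of 10 Eph-ephrin partners 4 passed it, a share near the 41.7% of all genes. Vav3, an exchange factor recruited by Eph receptors, had 6.58 and 7.49 CPM in SWAT, 17.1 and 14.96 CPM in EWAT and 3.82 and 3.59 CPM in NWAT, with 2.11 ± 0.16 for EWAT over NWAT (edgeR adjusted p = 2.18e-06).

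Markers of other cells also differed between the depots. Among glial markers, S100b had 8.06 and 10.5 CPM in SWAT, 3.27 and 3.73 CPM in EWAT and 2.39 and 3.06 CPM in NWAT. Mbp, a myelin protein gene, had 21.7 and 22.8 CPM in SWAT, 4.34 and 4.49 CPM in EWAT and 17.7 and 13.9 CPM in NWAT. Cdh19 had 6.36 and 9.81 CPM in SWAT, 2.57 and 2.52 CPM in EWAT and 1.43 and 2.09 CPM in NWAT. All 3 were called higher in SWAT than in EWAT and than in NWAT, while the glial factor Sox10 stayed at or below 0.110 CPM in every library and Foxd3 had no counts. The mesothelial list (Msln, Upk3b, Upk1b, Lrrn4, Krt19, Krt8, Wt1) summed to 3.51 and 4.22 CPM in SWAT, 160.1 and 169 CPM in EWAT and 118 and 146 CPM in NWAT, most of it from Wt1, which had 0 counts in both SWAT libraries, 152 and 161 CPM in EWAT and 106 and 135 CPM in NWAT. Of its 6 tested genes, 5 were lower in SWAT than in EWAT and 5 lower in SWAT than in NWAT. Krt19 was called higher in SWAT than in EWAT, at 3.18 and 3.11 CPM against 0.607 and 0.809 CPM. The mural list summed to 52.5 and 70.6 CPM in SWAT, 142 and 141 CPM in EWAT and 42.2 and 37.9 CPM in NWAT. Its 6 genes did not move together, with 3 higher in SWAT than in EWAT (Notch3, Kcnj8 and Cspg4) and 3 lower (Des, Myh11 and Rgs5), and Des made up 90.9 and 95.8 CPM of the EWAT sums. The endothelial list summed to 285 and 249 CPM in SWAT, 236 and 203 CPM in EWAT and 369 and 349 CPM in NWAT, almost all of it from Tek, and Cdh5 stood between 3.24 and 6.80 CPM. Its genes did not move together: of 9 tested, 3 were higher (Cdh5, Kdr and Vwf) and 1 lower (Tek) in SWAT than in NWAT. Between EWAT and NWAT, 2 were higher in EWAT (Pecam1 and Cldn5) and 1 lower (Tek). The neuron list summed to between 6.78 and 14.96 CPM and the adipocyte list to between 1.43 and 8.27 CPM. The part of these cells in the member differences was not tested.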

How the data were processed

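Bulk RNA sequencing libraries were used for 3 depots with 2 libraries each. The authors deposited estimated counts per gene symbol, not normalized, together with FPKM values for the same symbols, per the file headers. The submitters' processing notes name GRCm38.p6 as build and list Cell Ranger and Seurat with no role. Which aligner, counting program, strand setting and annotation were used is not given in the sources used here. Of each table, 2 value columns match no label and were left out. Of 17968 rows, 1 symbol was listed more than once and was read from its larger entry, leaving 17967.

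Counts were rounded, filtered with filterByExpr (minimum count 10, total 15) and scaled by TMM in edgeR 4.0.16 under R 4.3.3. The quasi-likelihood fit took depot as its only factor over 6 libraries, with 3 residual degrees of freedom, a common biological coefficient of variation of 0.0979, a joint test and 3 pairwise contrasts. Standard errors were derived from the F statistic as |log2 fold change| / sqrt(F). On data simulated for SWAT against EWAT over 13523 genes, the fit recovered 41 of 67 genes changed 1.5-fold and 65 of 67 changed 2-fold. The simulation gave every gene the common coefficient of variation and changed only genes above a minimum mean count. It therefore does not give the recovery of scarce or more variable members. Alternatives used RLE factors, DESeq2 1.42.0, other filters, limma 3.58.1 on FPKM (at least 1 in 2 libraries), a replicate block and each library left out.

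Members named with every library's value are those past the joint test and with mean log2 CPM of 1 or more, limited to the 26 with the largest pairwise change, plus the member of highest FPKM in each of 11 families. Pathway genes and others outside that rule were picked after their values were seen. Members and lists were chosen with earlier results of these data known. All 68 members matched RefSeq, whose coordinates and promoters are used. Precision is limited by 2 libraries per depot, each of about equal depth. The summed level of 1 further marker list is not reported here.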

Additional observations from a re-analysis of the deposited data

How the results depend on the processing

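The joint test called 33 to 40 members over the 6 fits that each leave out a library, and 40 with the replicate block. Of the 39 members called, 39 were also called with the block, 39 with RLE factors, 35 in DESeq2 and 27 on log2 (FPKM + 1) values, where 39 members could be tested. On log2 (FPKM + 1) and log2 (FPKM + 0.1) values, SWAT against EWAT had 19 calls, 8 of them higher, SWAT against NWAT had 6 higher and EWAT against NWAT 5 higher. EWAT against NWAT also had 5 higher calls in DESeq2 and with the stricter count filter. Shares of all genes called are given for the main fit only. Leaving out libraries gave 18 to 32 calls for SWAT against NWAT, with 5 to 16 higher, and 14 to 22 for EWAT against NWAT, with 4 to 8 higher. The other counts of members called jointly or between depot pairs stayed within 1.5 times their values. Counts of members set apart from both other depots moved too, and are given with them for some of the settings only. Ephb4, not called, turned to a log2 fold change of -0.061 for SWAT over EWAT on log2 (FPKM + 1) values and to -0.0685 on log2 (FPKM + 0.1) values. Of the pairwise calls of members, 14 of 29 between SWAT and EWAT, 15 of 30 between SWAT and NWAT and 13 of 23 between EWAT and NWAT held in all 13 alternatives. Fewer genes were tested under the FPKM and stricter filters, and fewer libraries were used when one was left out. The part of this in the changed counts was not tested, and neither were other causes. Same-numbered replicates deviated together little (correlations of 0.000549, 0.0375 and 0.110 between depots), so the numbers were not taken as pairs. With the replicate block 30, 30 and 23 members were called in these 3 comparisons. Members under about 1 CPM rest on few counts, so differences there may not be detectable at this depth.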
